A study of Mus musculus with 18 samples.

Results

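The replication-dependent histone genes were followed in newly made RNA of fetal liver erythroid cells. These are the clustered genes that supply the histones packaged onto new DNA. They were taken as the rows of the count table whose mouse symbol starts with Hist1h, Hist2h, Hist3h or Hist4h and whose counts summed to at least 30 over the 18 libraries. Of 70 such symbols in the names table, 58 had a row and 56 reached the minimum, out of 54232 rows in all, of which 30157 had any count. The 12 symbols without a row, of which 2 are H2A, 4 H2B, 5 H3, 1 H4 and 0 H1, were not analysed here. Hist2h2aa2 with 1 count and Hist3h2a with 0 counts fell under the minimum, and Hist1h2aa with 63 and Hist1h2br with 190 were the lowest members. The members were 6 H1, 16 H2A, 15 H2B, 7 H3 and 12 H4 genes, of which 45 belong to the Hist1 cluster on chromosome 13, 9 to the Hist2 cluster on chromosome 3 and 2 to the Hist3 cluster on chromosome 11.

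Fetal livers of C57BL/6 embryos at e12.5 to e13.5 were sorted by CD71 and Ter119, a transferrin receptor and a red-cell surface antigen that appear in sequence as erythroid cells mature. The 5 lineage-negative (Lin-) populations were S0-Low (CD71-, Ter119-), S0-Medium (CD71 medium, Ter119-), S1 (CD71 high, Ter119-), S2 (CD71 high, Ter119 medium) and S3 (CD71 high, Ter119 high), and a Lin+ fraction was measured beside them. No genetic change is named for any group. Sorted cells were rested for 6 h and given 500 µM 4-thiouridine (4sU) for 45 min, so that RNA made in that window could be biotinylated, captured and sequenced. Each population had 3 libraries, which are named here by the replicate number in the labels. The labels do not say whether the numbers stand for separate litters, so p-values measure the spread between these libraries. The S0-Low gate holds early progenitors of several kinds, and the Lin+ fraction, although labelled as erythroblasts, carried summed neutrophil markers of 3302 to 5941 counts-per-million (CPM) and summed erythroid markers of 274 to 351.

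Histone proteins form the spools that DNA winds around. A nucleosome core holds pairs of H2A, H2B, H3 and H4, and the linker histone H1 binds where the DNA enters and leaves. Most of their mRNA is made while DNA is being copied, from intronless genes that lie together in clusters, and it ends in a conserved stem-loop rather than a poly(A) tail. The stem-loop-binding protein SLBP holds that hairpin through processing, export and translation, and NPAT, acting at the histone locus body, promotes transcription of the clusters in S phase. Most replacement histones, by contrast, are made throughout the cell cycle from genes with ordinary polyadenylated transcripts. H2afx, counted with them below, differs in that its transcript holds the stem-loop.

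The stem-loop was read directly from the annotated mouse transcripts (GENCODE vM1) and is shown because it sets these RNAs apart from other mRNAs. A 16-base hairpin, with a fully paired 6-base stem and a 4-base loop, was sought within 100 bases after the stop codon. The search required the stem to open with GG and the loop with TT, so every form has these letters by the rule. Such a hairpin was present in 35 of the 45 members with at least 16 bases annotated there. Of the 22 with all 100 bases annotated 16 held it, namely 3 of 3 H1, 4 of 4 H2A, 4 of 9 H2B, 3 of 3 H3 and 2 of 3 H4 genes. Of the 23 with a shorter stretch 19 held it, and the other 4 had at most 40 bases annotated, too few to say whether a hairpin follows. Among 18432 other genes with all 100 bases 8 held a match (0.043%), among them H2afx, the gene of the DNA-damage-marked histone H2A.X. The hairpin began 22 to 59 bases after the stop codon (median 32). There were 6 forms, printed with stems in capitals and loops in lower case. Form 1 was in 21 genes of H1, H2A, H2B and H3, form 3 in 3 genes (Hist1h1t, Hist1h3c and Hist1h3e) and form 6 in Hist2h2ac. The 10 H4 genes with a hairpin held only the other stems, form 2 in 6 of them, form 4 in 2 and form 5 in 2, the last being Hist1h4i and Hist2h4.
Form 1: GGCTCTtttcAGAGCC
Form 2: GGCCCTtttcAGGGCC
Form 3: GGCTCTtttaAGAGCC
Form 4: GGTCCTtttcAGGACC
Form 5: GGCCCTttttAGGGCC
Form 6: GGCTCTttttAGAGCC

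Upstream DNA differed by histone type. In the 250 bases before the start site (RefSeq, GRCm38.p6, both strands searched), 49 members matched a promoter entry. The CCAAT box (CCAAT) was in 6 of 6 H1, 14 of 14 H2A, 12 of 12 H2B, 4 of 6 H3 and 3 of 11 H4 promoters, 79.6% of all 49, beside 34.5% of 27025 promoters overall. TATAAA was in 51.0% of members and 13.0% of all promoters. The octamer ATTTGCAT was in 6 of 14 H2A and 5 of 12 H2B promoters and in 0 of the other members, against 1.6% of all promoters. Where genes on opposite strands start close together, the same site can count for both, as for Hist1h2ae and Hist1h2bg. The H1 box AAACACA was in 5 of 6 H1, 2 of 14 H2A and 1 of 12 H2B promoters, in 0 of the H3 and H4 promoters and in 6.2% of all promoters. No searched motif holds another whole, but their ends can overlap, as those of TATAAA and the H1 box can, and a match is a description and not a bound site.

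The H1 promoters are printed because 4 of these genes had the highest mean levels per length over the 15 erythroid libraries and because Hist1h1a, which lacks the H1 box in the window searched, had the smallest S3 against S0-Low fold change of the 6 H1 genes. Whether the H1 box bears on that value was not tested. The 126 bases directly before each start site are given 5′ to 3′ on the gene's strand (GRCm38), with the letters of the H1 box, the CCAAT box and the TATA motif given above in capitals, on either strand.
Hist1h1a, chr13:23763542-23763667, plus strand: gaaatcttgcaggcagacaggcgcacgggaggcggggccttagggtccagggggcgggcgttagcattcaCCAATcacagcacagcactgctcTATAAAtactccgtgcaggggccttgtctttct
Hist1h1b, chr13:21780626-21780751, minus strand: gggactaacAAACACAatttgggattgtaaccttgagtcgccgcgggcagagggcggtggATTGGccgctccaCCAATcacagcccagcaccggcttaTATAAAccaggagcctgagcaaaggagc
Hist1h1c, chr13:23738681-23738806, plus strand: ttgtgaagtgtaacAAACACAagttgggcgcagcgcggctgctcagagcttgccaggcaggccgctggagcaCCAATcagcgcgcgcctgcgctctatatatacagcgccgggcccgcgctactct
Hist1h1d, chr13:23554906-23555031, plus strand: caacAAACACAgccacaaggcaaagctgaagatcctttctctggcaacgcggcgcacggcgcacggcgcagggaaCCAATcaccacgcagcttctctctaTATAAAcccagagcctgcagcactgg
Hist1h1e, chr13:23622559-23622684, minus strand: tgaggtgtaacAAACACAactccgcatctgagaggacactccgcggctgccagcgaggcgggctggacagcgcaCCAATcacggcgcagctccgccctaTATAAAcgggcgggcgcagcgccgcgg
Hist1h1t, chr13:23695685-23695810, plus strand: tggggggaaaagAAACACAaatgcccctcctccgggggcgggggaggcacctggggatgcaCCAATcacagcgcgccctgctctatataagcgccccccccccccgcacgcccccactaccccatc

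H2A and H2B genes are often arranged head to head, with start sites less than 1000 bases apart on opposite strands. There were 6 such pairs among the 49 members with a promoter entry, 174 to 281 bases between starts. Members without an entry, such as Hist1h2bc and Hist2h2be, could not be searched for a partner. The stretch between Hist1h2ae on the minus strand and Hist1h2bg on the plus strand (chr13:23571221-23571399, GRCm38, plus strand) is printed because both genes of the pair share it, with CCAAT, the octamer and TATAAA in capitals on either strand.
Hist1h2ae to Hist1h2bg: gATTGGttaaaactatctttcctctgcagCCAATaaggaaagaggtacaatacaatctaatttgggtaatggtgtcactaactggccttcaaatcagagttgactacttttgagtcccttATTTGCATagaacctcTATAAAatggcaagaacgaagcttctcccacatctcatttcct

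Libraries held 9452476 counts (S0-Low 3) to 40567976 counts (S1 1), and CPM use a library size scaled by trimmed mean of M values (TMM). A count of 0 allows up to 3 counts, 0.0739 to 0.317 CPM by a library's own total. Histone levels followed the replicate number as well as the population. Libraries numbered 1 held 2.61 to 5.66 times the summed histone CPM of libraries numbered 2 in all 6 populations, and libraries numbered 3 held 1.11 to 3.38 times. Over the 45 members that averaged at least 5 CPM, the median log2 difference between number 1 and number 2 was 1.60 to 3.29 across populations. Over 1601 other genes with coding sequence under 700 bases it was -0.35 to -0.04, and over 8130 longer genes -0.19 to 0.06. Summed S-phase genes in number 1 were 0.78 to 0.98 times those in number 2, and summed replacement histones 1.07 to 1.31 times. H2afx, which has the stem-loop, stood at 308 CPM in S0-Low 1 against 164 in S0-Low 2 and at 661 in S2 1 against 248 in S2 2. What the replicate numbers carry was not tested. Comparisons within a number are therefore given beside the pooled ones.

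Summed histone RNA was higher in the most mature population than in the least mature one in every library. In S0-Low the 56 members summed to 14394, 4384 and 4876 CPM in libraries 1, 2 and 3. In S3 they summed to 63334, 24311 and 29543, so that every S3 library lay above every S0-Low library. The ratio of means was 4.95 (log2 2.31), and within numbers 1, 2 and 3 it was 4.40, 5.55 and 6.06. Scaled by library totals instead, the ratios were 2.95, 3.15 and 2.75, and the members made up 0.908% ± 0.584 of all counts in S0-Low and 2.67% ± 1.72 in S3 (SD, n = 3). These are shares of each library's captured RNA, so more cells making histone RNA and more of it per cell cannot be told apart. S3 also differed from S0-Low in its cells. Summed erythroid markers (9 genes) went from 501 to 1069 CPM in S0-Low to 27245 to 45773 in S3, while stem and progenitor markers (6 genes) went from 1695 to 2457 down to 28.3 to 29.5. Neutrophil markers (8 genes) summed to 329 to 777 CPM in S0-Low and at most 2.43 in S3, and macrophage and monocyte markers (8 genes) to 55.6 to 125 and at most 4.28. The part of these other cells in the histone values was not tested.

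**Figure D1:**
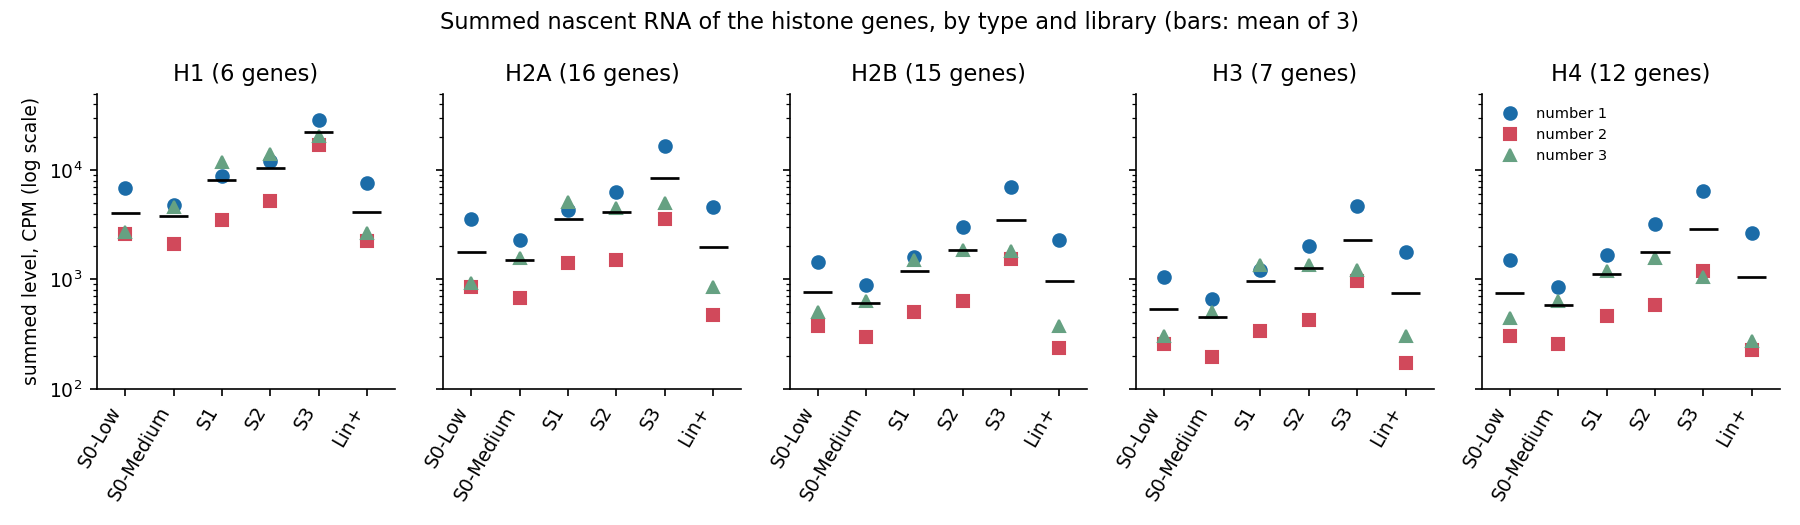
Summed level of the histone genes in CPM (log axis) in a panel for each of H1, H2A, H2B, H3 and H4, with a point per library marked by replicate number, a bar for the mean of 3 libraries and the populations along the horizontal axis. The S3 library is the highest of its number for all types in numbers 1 and 2 but only for H1 in number 3 (0.98 times S2 by library totals), and each number 1 point lies above the number 2 point of its population.

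The difference was tested gene by gene with edgeR's quasi-likelihood test over 16555 genes, with Benjamini-Hochberg adjustment and a threshold of 0.05. Of the 55 members that passed the low-count filter, 25 were higher in S3 (0 lower) relative to S0-Low, where 13.4% of all genes tested were higher and 22.4% lower. At an unadjusted p under 0.05, 36 were higher and 0 lower, beside 2809 and 5041 of the 16555 genes. All 55 fold changes were above 0, from 0.52 to 6.20 on the log2 scale, with a median of 2.19, beside a median of -0.54 over all genes. Without S3 1, 51 of the 55 were above 0 and the median was 1.22, and without S0-Low 1 the median was 3.00. Each of these fits keeps number 1, high throughout, in the other population. Without number 1 in any population, 54 of the 55 were above 0 and the median was 2.24. For 21 of the 55, every S3 library lay above every S0-Low library (16.6% of all genes), and 49 were higher in all 3 same-numbered pairs (21.3% of all genes). By type, 4 of 6 H1, 6 of 15 H2A, 8 of 15 H2B, 4 of 7 H3 and 3 of 12 H4 genes were called, with median log2 fold changes of 2.32, 2.09, 2.22, 2.48 and 1.76. The number called depended on a few libraries, being 6 without S0-Low 2, 10 without S0-Low 3, 8 without S3 1 and 35 without S0-Low 1. In these fits 9% to 12.3% of all genes were called higher. This fit has no term for the replicate number, so the spread between numbers counts as error in it, and a member not called is not shown to be level.

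**Figure D2:**
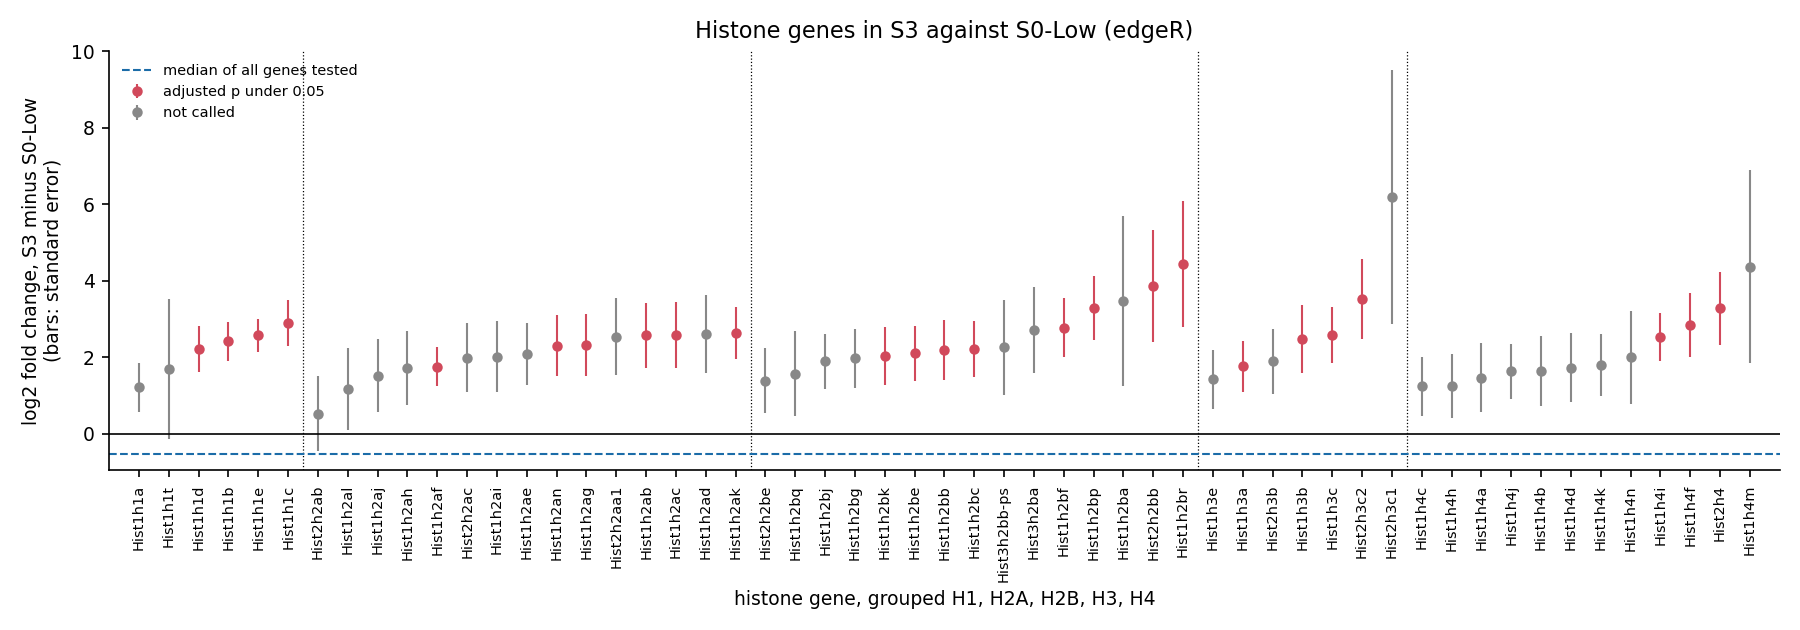
Log2 fold change of S3 over S0-Low with its standard error for each histone gene tested, grouped by type, with red points for the 25 genes past an adjusted p of 0.05, grey points for the others and a dashed line for the median of all genes at -0.54. All 55 points lie above 0 in this fit of all libraries.

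On average, H1 genes gave the highest levels per length. CPM per kilobase of coding length, averaged over the 15 erythroid libraries, placed Hist1h1c (4343), Hist1h1d (3424), Hist1h1e (3213) and Hist1h1b (2382) in that order at the head of all members, before Hist2h2ac (2080) and Hist1h2ak (2065). The order varied between libraries, and these 4 H1 genes were the 4 highest in 9 of 15. In S0-Low means Hist2h2ac (1045) lay above Hist1h1b (971), and in S3 1 Hist2h2ac and Hist1h2ak lay above Hist1h1e and Hist1h1b. The first 4 named encode linker histones and the last pair H2A, and of the other H1 genes Hist1h1t is the testis form. Together H1 took 53.9% ± 6.0 of summed histone counts in S0-Low and 61.4% ± 14.1 in S3. The S3 libraries were at 45.2%, 70.0% and 69.1%, so the S3 spread spans the S0-Low mean. The 12 symbols without a row, 0 of them H1, are left out of these sums, so the shares are of the members only.

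Hist1h1c (H1.2, 13:23738807-23739531) stood at 1647, 556 and 756 CPM in S0-Low 1, 2 and 3 and at 10091, 4850 and 7239 in S3. Between them it was at 1201, 442 and 1090 in S0-Medium, 1887, 818 and 3219 in S1, and 2891, 1226 and 3713 in S2. The S3 libraries lay above all other erythroid libraries, while S1 and S2 overlapped S0-Low. Its log2 fold change from S0-Low to S3 was 2.90 ± 0.60 (SE, adjusted p = 0.0019, edgeR). Hist1h1e (H1.4, 13:23621777-23622558) was the steadiest in S3, at 5514, 5073 and 4925 CPM against 1328, 650 and 629 in S0-Low, a log2 fold change of 2.57 ± 0.44 (adjusted p = 0.000479, edgeR). Its number 1 library was thus high in S0-Low and not far from the others in S3. Hist1h1b (H1.5, 13:21779832-21780625) rose from 1046, 452 and 458 CPM to 4633, 2988 and 2871, by 2.42 ± 0.51 (adjusted p = 0.00224, edgeR). Hist1h1d (H1.3, 13:23555032-23555807) rose from 1870, 636 and 621 CPM to 6415, 3473 and 4669, by 2.22 ± 0.60 (adjusted p = 0.0101, edgeR). For both, the lowest S3 library exceeded the highest of S0-Low.

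Hist1h1a (H1.1, 13:23763668-23764412) did not pass the test and its libraries overlapped. It was at 905, 292 and 235 CPM in S0-Low, 655, 258 and 595 in S0-Medium, 1491, 415 and 1318 in S1, 1674, 576 and 1449 in S2, and 1972, 636 and 714 in S3. Its S3 libraries 2 and 3 lay under S0-Low 1, and its S3 library 3 lay under S2 library 3. The log2 fold change was 1.21 ± 0.63 (adjusted p = 0.142, edgeR). Hist1h1t was barely detected, at 3.20, 0.200 and 0 CPM in S0-Low and 5.53, 1.76 and 3.85 in S3.

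Within H1, the shares of Hist1h1a and Hist1h1c in S3 lay outside their range over the 4 less mature erythroid populations. Hist1h1a made up 13.6%, 11.6% and 8.88% of summed H1 CPM per kilobase in S0-Low (mean 11.3%), 12.1% ± 1.96 in S2, and 7.02%, 3.82% and 3.57% in S3 (mean 4.80%). Hist1h1c made up 24.9%, 22.1% and 28.7% in S0-Low (mean 25.2%), 25.4% ± 1.66 in S2, and 36.1%, 29.3% and 36.3% in S3 (mean 33.9%). Neither share overlapped between S0-Low and S3. Hist1h1d went from 24.7% to 21.5%, also without overlap, whereas Hist1h1b (16.2% and 15.5%) and Hist1h1e (22.5% and 24.2%) overlapped. An exact two-sided permutation test gave p = 0.1 for Hist1h1a, Hist1h1c and Hist1h1d, the smallest value that 3 libraries against 3 allow, and p = 0.7 for Hist1h1b and Hist1h1e, so no share could reach 0.05. Shares are free of library scaling, and within each number Hist1h1a was lower and Hist1h1c higher in S3 than in S0-Low.

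**Figure D3:**
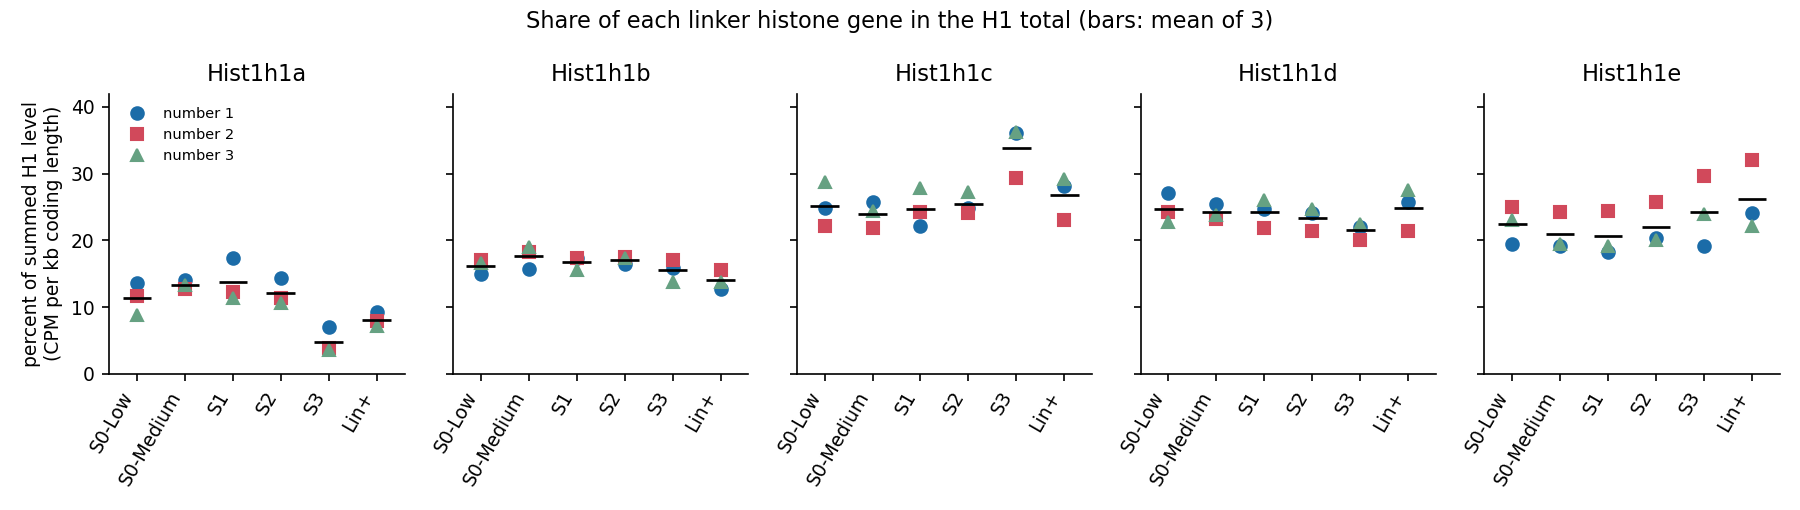
Share of each H1 gene in the summed H1 CPM per kilobase of coding length (percent), by population, with a point per library and the mean as a line. Hist1h1a stays between 8.88% and 17.4% from S0-Low to S2 and lies between 3.57% and 7.02% in S3, and Hist1h1c lies between 29.3% and 36.3% in S3.

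Among the core histones, H2A counts fell mainly on Hist1h2ak, Hist2h2ac and Hist1h2af, which together made up 59.4% of them. Hist1h2ak (13:21753377-21753912) stood at 631, 165 and 185 CPM in S0-Low and at 3586, 1005 and 1527 in S3, with no overlap and a log2 fold change of 2.64 ± 0.68 (adjusted p = 0.00797, edgeR). Hist1h2af rose from 609, 210 and 160 CPM to 1521, 670 and 1113, by 1.75 (adjusted p = 0.0157). The lowest S3 library of Hist1h2af was close to the highest of S0-Low. Only 14.1% of the 31-base stretches of Hist1h2af occur in no other transcript, so the part of these counts that belongs to it is uncertain. Hist2h2ac (3:96220413-96220880) was not called (1.99 ± 0.90, adjusted p = 0.0919), and went from 874, 151 and 198 CPM to 3711, 549 and 619. Number 1 was far above the others in both populations for this gene, and S3 libraries 2 and 3 lay under S0-Low 1. Hist1h2ac (2.58), Hist1h2ab (2.57), Hist1h2an (2.30) and Hist1h2ag (2.33) made up the rest of the 6 called.

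H2B RNA came mainly from Hist1h2bc, Hist1h2bb and Hist1h2be (54.6% of H2B counts), and all 3 were called, with log2 fold changes of 2.22, 2.19 and 2.11. Hist1h2bc went from 348, 94.3 and 61.8 CPM in S0-Low to 1497, 425 and 423 in S3, without overlap. Hist1h2bp, at lower level, had a larger fold change, from 42.3, 7.86 and 6.89 CPM to 358, 80.5 and 118 (log2 3.28, adjusted p = 0.00774). Its partner across the shared upstream stretch, Hist1h2an, went from 310, 65.9 and 89.2 CPM to 1549, 299 and 443. The other partners gave log2 fold changes of 2.77 and 2.62 (Hist1h2bf and Hist1h2ad), 1.97 and 2.09 (Hist1h2bg and Hist1h2ae), 1.89 and 2.33 (Hist1h2bj and Hist1h2ag), and 2.03 and 1.71 (Hist1h2bk and Hist1h2ah). Of these 8, Hist1h2bf, Hist1h2ag and Hist1h2bk were called, and no difference between partners was tested. Hist1h2br and Hist2h2bb, also called, averaged 0.0868 and 0.303 CPM in S0-Low, at or near the limit that a count of 0 allows, so the size of their fold changes depends on the small count that the fit adds.

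H3 counts of the 7 members came mainly from Hist1h3b, Hist1h3e and Hist1h3c (75.1%), and 5 further H3 symbols had no row. Hist1h3c rose from 139, 41.9 and 58.2 CPM in S0-Low to 941, 197 and 295 in S3, without overlap, by 2.58 on the log2 scale (adjusted p = 0.0142). Hist1h3b rose by 2.48 (adjusted p = 0.038), from 345, 77.9 and 39.5 CPM to 1749, 341 and 502, with S3 2 just under S0-Low 1. Hist1h3e went from a mean of 166 to 445 CPM and was not called (1.42, adjusted p = 0.156). Hist1h3a (1.76) and the low Hist2h3c2 (3.53, 1.14 to 13.1 CPM) were the other H3 genes called.

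H4 RNA was the most spread over its genes, Hist1h4d, Hist1h4h and Hist2h4 giving 49.1% of H4 counts, and it had the fewest calls. Hist2h4 (3:96262934-96263317) rose from 110, 19.6 and 22.3 CPM in S0-Low to 1123, 164 and 198 in S3, by 3.28 ± 0.95 on the log2 scale (adjusted p = 0.0151, edgeR). Hist1h4i rose from 41.5, 18 and 5.65 CPM to 145, 147 and 85.6, by 2.53 (adjusted p = 0.00566), and Hist1h4f by 2.84 (adjusted p = 0.0161). None of the S0-Low and S3 libraries of Hist2h4 and Hist1h4i overlapped. Hist1h4d (13:23581568-23581969), the most abundant H4 gene, was at 510, 93.9 and 93.8 CPM in S0-Low and 1830, 280 and 209 in S3 (1.73, adjusted p = 0.146). Hist1h4h was at a mean of 113 and 269 CPM (1.25, adjusted p = 0.246, or -0.32 without S3 1 and with S0-Low 1 kept). Summed H4 RNA in S3 was 4.23, 3.90 and 2.35 times that in S0-Low within numbers 1, 2 and 3, and 2.83, 2.21 and 1.07 times by library totals, so that the H4 difference in number 3 came to little under that scaling. For comparison, summed H1 RNA was 4.21, 6.58 and 7.57 times that in S0-Low, H2A 4.62, 4.18 and 5.46, H2B 4.89, 4.13 and 3.59, and H3 4.45, 3.73 and 4.02. The ratios of means fell when S3 1 was left out and S0-Low 1 kept, which is unbalanced because number 1 was high in both. The log2 ratio then went from 1.93 to 0.57 for H4, from 2.09 to 1.01 for H3 and from 2.16 to 1.12 for H2B. It went from 2.23 to 1.27 for H2A and from 2.45 to 2.22 for H1. Without number 1 in any population, the members' median log2 fold change was 2.24, beside 2.19 with all libraries (edgeR).

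Near-identical coding sequences limit how far single copies can be told apart. Of 53 members with an annotated coding transcript, 25 had at least 50% of their 31-base stretches found in no other transcript, with medians of 94.9% for H1, 41.4% for H2A, 48.4% for H2B, 43.0% for H3 and 50.8% for H4. Hist1h4m (8.3% unique, 13:21811746-21812150) stood at 5.81, 15.5 and 20.0 CPM in the number 3 libraries of S0-Medium, S1 and S2 and at 2.38 or less in each of the others. Hist1h4n, another copy with few unique stretches, was low in S0-Low 3 (0.581 CPM) and S3 3 (4.02 CPM), where S0-Low 1 had 40.4 and S3 1 had 181. The values of these low-uniqueness copies are uncertain. Summing by type removes the splitting of counts between members of a type, but not that with other genes. H2A members shared 7.4% to 42.4% of their stretches with genes outside the histone symbols, members of the other types at most 4.2%, and the 12 symbols without a row are in no sum.

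**Figure D4:**
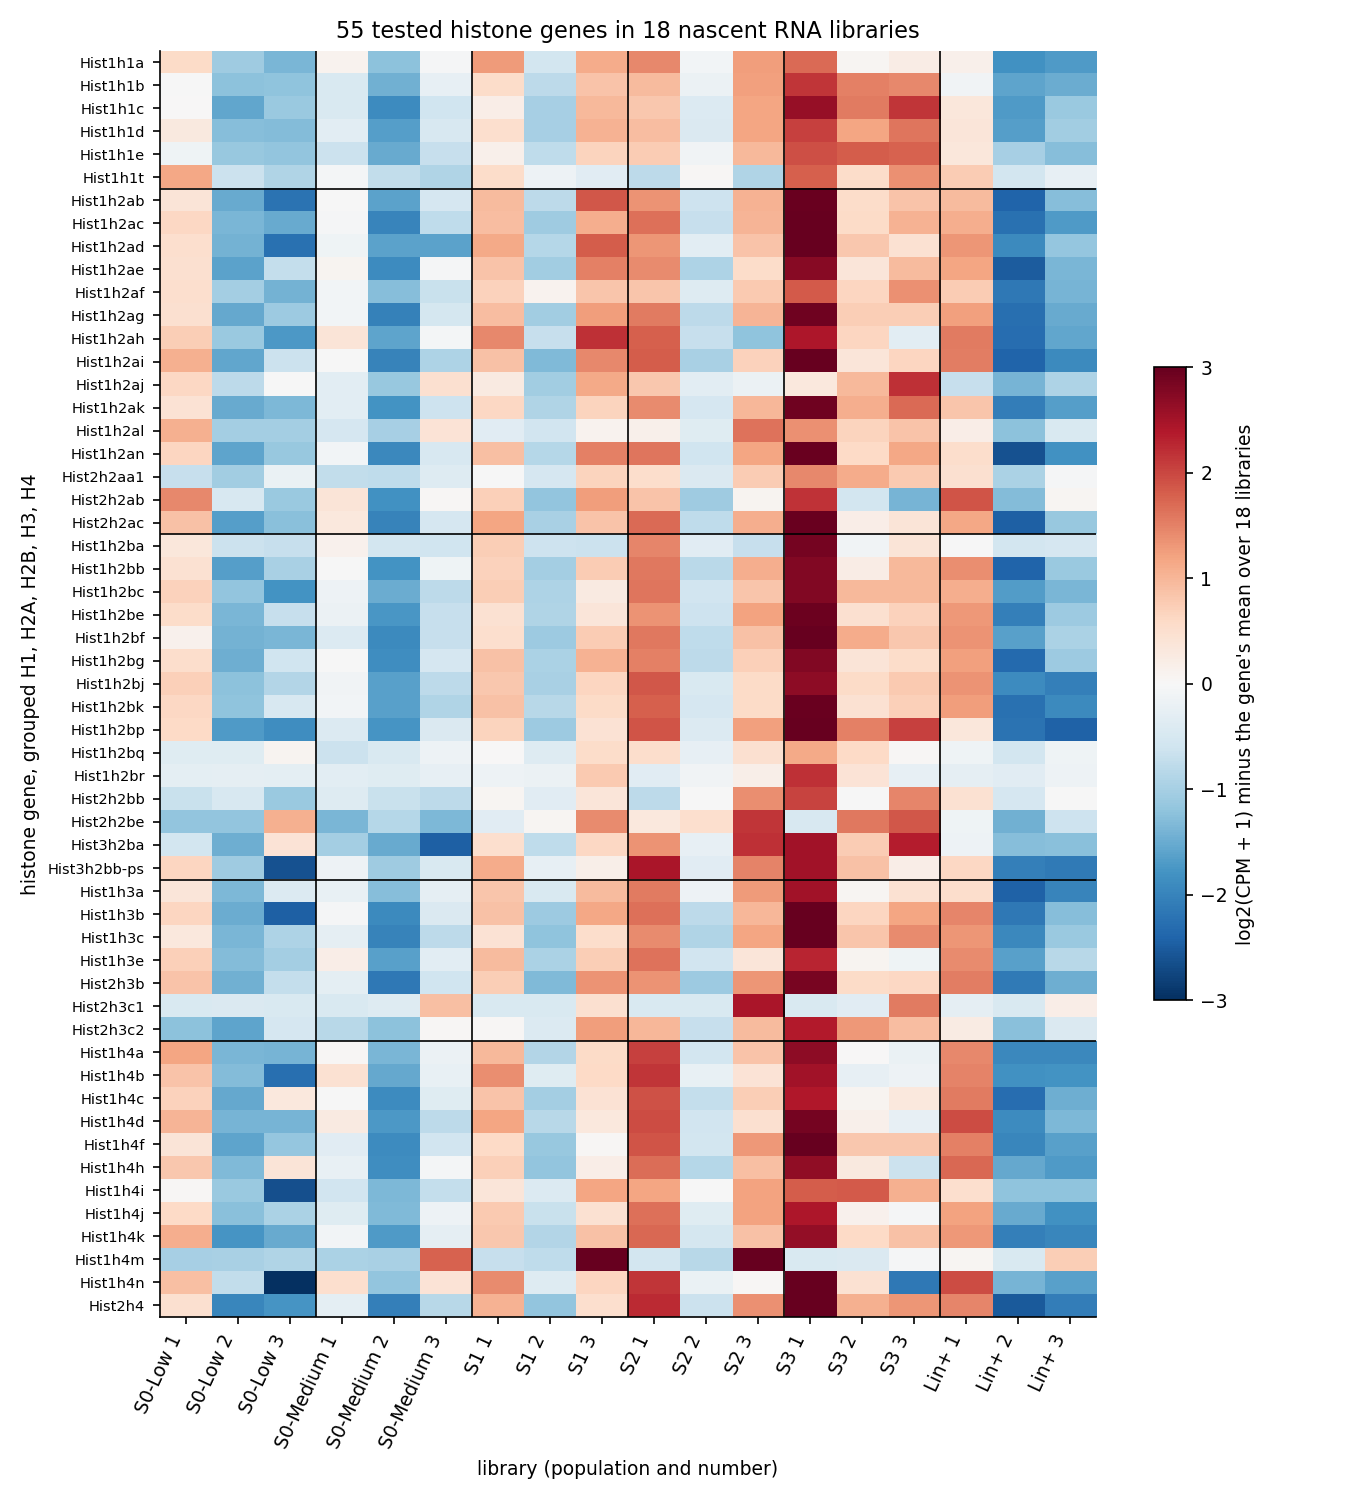
Level of each histone gene (rows, grouped by type) in each of the 18 libraries (columns, grouped by population), as log2(CPM + 1) minus the gene's mean over the libraries, for the 55 genes tested. Red, above the mean, is deepest in S3 1, and for most genes the column numbered 2 is bluer than the column numbered 1 of the same population.

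In the fit with the low-count filter and without a term for the replicate number, edgeR called no member in any step between neighbouring populations, and the steps are given by their values. DESeq2 also called 0 in each of these steps but the last, where it called 2, beside 3354 of 28888 genes in either direction. From S0-Low to S0-Medium the members' median log2 fold change was -0.25, with 1 member at an unadjusted p under 0.05, in a comparison in which 0% of all genes were called higher and 0% lower. Within numbers, the sum was 0.66, 0.80 and 1.62 times that of S0-Low, so the direction differed between numbers, and 1 of 55 members was higher in all 3 pairs (18.6% of all genes).

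From S0-Medium to S1, 52 of 55 members were higher in all 3 same-numbered pairs, where 23.6% of all genes were. The sum was 1.84, 1.77 and 2.65 times that of S0-Medium and the median log2 fold change 1.10. At an unadjusted p under 0.05 there were 6 members, where 278 of 16555 genes were higher and 857 lower. Without a term for the number, edgeR called 0% of all genes higher or lower. With the number as a block it called 28 genes higher and 29 lower, with no member among them. From S1 to S2 the median was 0.41, with 0 members at an unadjusted p under 0.05 and 0% of all genes called in either direction. The sum was 1.52, 1.35 and 1.11 times that of S1, and 26 of 55 members were higher in all 3 pairs (16.5% of all genes). By library totals number 3 turned, to 0.88 times.

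From S2 to S3 the median log2 fold change was 0.94 beside -0.31 over all genes. At an unadjusted p under 0.05 there were 2 members, where 1484 of 16555 genes were higher and 2894 lower. Of all genes, 3.26% were called higher and 6.09% lower. The sum was 2.38, 2.90 and 1.27 times that of S2, or 0.85 times in number 3 by library totals, and 20 of 55 members were higher in all 3 pairs (15.8% of all genes). In number 3, summed H1 RNA went from 13970 to 20422 CPM (0.98 times by library totals) while summed H4 RNA went from 1562 to 1048. Libraries of the same number deviated together here, and with the number as a block 8 members were called higher, where 7.30% of all genes were. These were Hist1h1c (1.60, adjusted p = 0.00316), Hist1h1e (1.33), Hist1h1b (1.06), Hist1h1d (1.07), Hist1h2ak (1.28), Hist1h2ae (1.09), Hist1h2bp (1.53) and Hist1h3c (1.24), with no H4 gene among them. The 4 abundant H1 genes were thus all among them, and Hist1h1a was not.

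From S0-Low to S1 directly, the median log2 fold change was 0.84 with 0 members called by edgeR or DESeq2. In edgeR 0.979% of all genes were called higher and 1.95% lower. At an unadjusted p under 0.05 in edgeR there were 4 members, where 1004 of 16555 genes were higher and 1653 lower. In the same comparison 43 of 55 members were higher in all 3 pairs (28.3% of all genes). A test for any difference over the 5 erythroid populations called 13 of 55 members beside 24.6% of all genes, with 27 at an unadjusted p under 0.05. When replicate number entered as a block, 39 of 55 were called, beside 33.1% of all genes, so how the members compare with all genes turns on that term.

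Lin+ cells lay near S0-Low. Their members summed to 18891, 3337 and 4449 CPM, 1.31, 0.76 and 0.91 times S0-Low within numbers, with a median log2 fold change of 0.28. Both edgeR and DESeq2 called 0 members, with 1 of the 55 tested by edgeR at an unadjusted p under 0.05, and 0.496% of 17755 genes were called higher and 0.22% lower.

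Genes that act on histone RNA and protein were described as lists beside the members. Of 17 genes of histone transcription, 10 were higher in S3 (0 lower, median 1.00). They included Npat, the coactivator of the histone locus body, at 91.2, 111 and 106 CPM in S0-Low and 217, 149 and 239 in S3 (0.97, adjusted p = 0.0322). Cyclins that act at S phase were also in this list, Ccne2 rising by 3.02 and Ccna2 by 3.18, as was the factor E2f2 (5.73). Hinfp, the H4 promoter-binding factor, was not called, at 50.9, 55.8 and 61.5 CPM in S0-Low and 74.7, 81.0 and 183 in S3 (1.01, adjusted p = 0.0705). Of 13 genes of 3′ end processing 2 were higher and 0 lower, a share close to the 13.4% of all genes, with a median of -0.41 beside -0.54 over all genes. They were Slbp, from 149, 164 and 116 CPM to 375, 565 and 791 (2.01, adjusted p = 0.000906), and Zfp473 (2.16), the partner of the U7 particle. Slbp was already at 368, 429 and 701 in S2, so its levels overlapped between S2 and S3. Of 11 histone mRNA decay genes 4 were higher, among them the hairpin exonuclease Eri1 (1.65), and 1, the decapping enzyme Dcp2, was lower (-1.20). Of 21 histone chaperones 3 were higher, Asf1b (3.10), Cabin1 (1.32) and Asf1a (1.23), and 0 lower, which is again close to the 13.4% of all genes.

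Replacement histones moved in both directions. Of 10 tested, 4 were higher in S3 than in S0-Low, namely H2afx (2.84), H3f3a (2.57), Cenpa (1.55) and H3f3b (1.20), and 3 were lower, H2afy, a macroH2A gene, among them (-2.45). Of all genes 13.4% were higher and 22.4% lower, so the 3 lower are close to the share of all genes. The other 2, H2afy2 and H1fx, had 0 counts in S3 and averaged 3.35 and 7.29 CPM in S0-Low. H3f3a and H3f3b encode H3.3, which is laid down outside replication, and Cenpa the centromeric H3. H3f3b stood at 470, 526 and 506 CPM in S0-Low and 1171, 1214 and 1065 in S3, so its libraries differed little within S0-Low and within S3. In S0-Medium they stood further apart, at 328, 457 and 492.

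Of 24 S-phase genes tested 14 were higher in S3 relative to S0-Low (0 lower, median 1.04), and the other 10 did not pass the test. Of 12 G2/M genes 12 were higher (median 2.07). Over all genes 13.4% were higher and 22.4% lower, with a median of -0.54. Within numbers, summed S-phase genes in S3 were 1.75, 2.05 and 3.82 times those in S0-Low and G2/M genes 5.56, 4.97 and 13.3 times, with the histone sum at 4.40, 5.55 and 6.06 times. In S3 the G2/M sum rests mostly on Mki67, and without it, an alternative added after the data were seen, the other 11 genes gave 3.22, 3.32 and 6.34 times. From S2 to S3 the S-phase sum was 0.98, 1.08 and 0.95 times, with 0 genes called higher and 1 lower, while the G2/M sum was 2.35, 2.73 and 3.60 times with 5 higher and 0 lower (3.26% of all genes were higher), and the histone sum 2.38, 2.90 and 1.27 times. Without Mki67 the G2/M sum in this step was 1.91, 2.21 and 2.51 times. By library totals the S-phase sum in this step was 0.78, 0.71 and 0.64 times, the G2/M sum 1.86, 1.80 and 2.42 times and the histone sum 1.88, 1.91 and 0.85 times. From S0-Low to S3 the S-phase sum was then 1.17, 1.16 and 1.74 times and the G2/M sum 3.72, 2.82 and 6.06 times. Mki67, a marker of dividing cells, went from 1377, 2116 and 1628 CPM in S0-Low to 12275, 14432 and 38033 in S3. Its highest library was S3 3, whereas the highest histone sum was in S3 1.

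**Figure D5:**
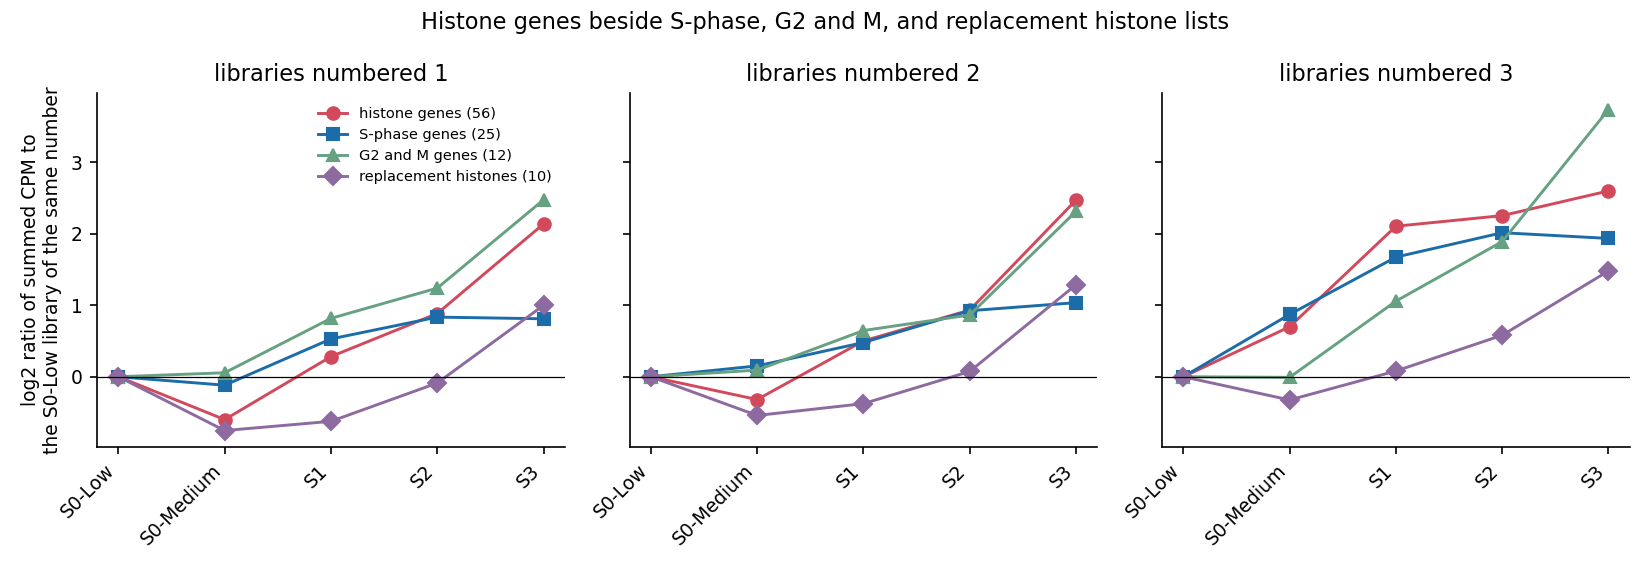
Summed level of the 56 histone genes, 25 S-phase genes, 12 G2/M genes and 10 replacement histones in each erythroid library, as the log2 ratio to the S0-Low library of the same number, with a panel per replicate number and the populations along the horizontal axis. From S2 to S3 the histone line rises in each panel, least in number 3 (1.27 times, or 0.85 by library totals), beside the S-phase line (0.95 to 1.08 times, or 0.64 to 0.78 by library totals) and the rising G2/M line (2.35 to 3.60 times, or 1.91 to 2.51 times without Mki67).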

How the data were processed

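Newly made RNA of 6 fetal liver populations, 3 libraries each, was labelled with 4sU, captured with streptavidin and sequenced from a stranded total RNA kit with 14 PCR cycles and no molecular identifiers. The authors deposited a table of whole-number counts per Ensembl gene. The submitters' processing notes name kallisto 0.43.0 and GRCm38. The transcript set, the handling of introns and the strand setting are not given in the sources used here, so overlapping and near-identical genes may share counts. Libraries held 9452476 to 40567976 counts, and intervals of counting cover counting error only.

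Counts were scaled by TMM and tested with edgeR 4.0.16 (R 4.3.3) quasi-likelihood over the 15 erythroid libraries after filterByExpr (16555 genes), or over all 18 for Lin+ (17755 genes), with Benjamini-Hochberg adjustment over all genes tested. The biological coefficient of variation was 0.795. DESeq2 1.42.0, other scalings, filters, samples in the fit and libraries left out were tried as alternatives. On counts simulated for S3 against S0-Low the edgeR steps were checked to recover changed genes. The simulated spread was smaller than the fitted coefficient and held no effect of the replicate number. The check therefore does not give the power or the error rate in these data. Sums, shares and exact permutation tests were computed in Python 3.11.15 with pandas 2.3.3 and scipy 1.17.1. H1 shares use annotated coding length.

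The members and the gene lists were chosen with earlier results of these data known. Named members were the 3 most abundant of each type, the 5 largest called changes in each direction, all H1 genes and the testis or Hist3 genes, and other members named in the text were chosen after their values were seen. Of those, Hist1h2ba averaged 0.353 CPM in S0-Low and 4.09 in S3, Hist3h2ba 3.45 and 22.5, and Hist3h2bb-ps 3.47 and 16.8, with 0 of the 3 called, and Hist1h2aa was under the filter at no more than 2.27 CPM in any library. Replicates differed by more than counting error and were kept as separate samples. Same-numbered libraries deviated together between neighbouring populations (correlation of deviations over genes 0.111 to 0.408, each pair above 0.1), but not between S3 and S0-Low (0.0352 to 0.0956).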

Additional observations from a re-analysis of the deposited data

How the results depend on the processing

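The members' median fold change from S0-Low to S3 was above 0 under all alternatives tried, with 0 members called lower, but how many passed the threshold did not. The fit described above called 25 of 55 members higher, beside 13.4% of all genes. Library totals gave 12 of 55 (7% of all genes) and no low-count filter 39 of 56 (7.4%). With only the 6 libraries compared there were 10 of 53 (10.5%), and without replicate 3 in every population 11 of 54 (13.7%). An alternative added after the data were seen, without replicate 1, gave 12 of 55 (7.7%). Leaving out 1 library at a time gave 6 (without S0-Low 2) to 35 (without S0-Low 1), and leaving out S0-Low 3 or S3 1 also lowered the count, to 10 and 8. Of all genes, 9% were called higher without S0-Low 2 and 12.3% without S3 1. The 6 and 8 of 55 members in those fits are thus close to the share of all genes. DESeq2 gave 28. The members' median log2 fold change exceeded that of all genes by 1.84 to 3.51 over the alternatives. Library totals moved the median of all genes from -0.54 to -1.36 and that of the members from 2.19 to 1.44. The cause was not tested.

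With the replicate number as a block, 42 members were called in S3 against S0-Low (15.9% of all genes), where same-numbered libraries did not deviate together over all genes although histone levels followed the number, and 8 in S3 against S2, where they did; the block changed no other count between a pair of populations. S3 against S2 otherwise gave 2 with DESeq2 (3354 of 28888 genes in either direction) and 3 with no filter (2546 of 28888), against 0. With no filter S1 against S0-Medium gave 1 (327 of 28888 genes) and S1 against S0-Low 2 (1139 of 28888). The test for any difference called 13 members (4077 of 16555 genes), 21 with DESeq2 (6403 of 28888) and 4 with library totals (4697 of 16555). It called 41 with no filter (6253 of 28888) and 39 with the replicate block (5479 of 16555). Without replicate 3 it called 6 (4774 of 17255), and without replicate 1 it called 1 (1377 of 16592). Of 444 fold changes of named members under alternatives, 353 kept their side of the threshold, 75 lost the call and 16 gained it. The uncalled Hist1h4h turned negative (-0.32) without S3 1, in a fit that keeps S0-Low 1. Depth limits a few of the lowest members, such as Hist1h2br, whose S0-Low counts lie near 3 or under.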
